A study of Homo sapiens with 21 samples.

Results

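APE1 siRNA was set against control siRNA in untreated A549 cells, a line of human lung adenocarcinoma cells, by the 6 microarrays of the series that carry these labels and no drug, out of 21 arrays in all. The 3 APE1 siRNA arrays and the 3 control siRNA arrays each held total RNA of 1 biological replicate, taken 48 hours after transfection according to the labels, while the methods of the study give a later harvest. A further 6 A549 arrays held cells given the same siRNAs and then trichostatin A (TSA), an inhibitor of histone deacetylases, at 100 ng/ml for 4 hours, and the other 9 arrays held BEAS-2B bronchial epithelial cells. The cells were transfected with Lipofectamine, the controls with a universal control siRNA, and all APE1 siRNA arrays with the same single siRNA. By these arrays, loss of APE1 and any effect of that siRNA on other transcripts cannot be told apart. Values are log2 RMA values, which put the signal of a probe set on a log2 scale after background correction and normalization across arrays. In such bulk RNA, fewer cells with a transcript and less of it in each cell cannot be told apart.

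APE1 is the main apurinic/apyrimidinic endonuclease of mammalian cells. In base excision repair a DNA glycosylase removes a damaged base, APE1 nicks the strand at the site left without a base, and a polymerase and a ligase fill and seal the gap. The protein is also known as Ref-1, for its action on the DNA binding of AP-1, NF-kB, HIF-1 and other transcription factors.

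APE1 siRNA replicate 2 stood apart from the other arrays. Its values correlated at r = 0.894 to 0.896 with the other 5 arrays, whose own highest r was 0.998, and their SD across probe sets was 1.66, against 2.08 at most on the other 5 arrays. Its median difference from the mean of the controls was 0.25 for probe sets with a control level under 4 and -1.85 for those over 12, where the same medians on APE1 siRNA replicates 1 and 3 lay between -0.02 and 0.02. The 3' minus 5' difference of the ACTB control probe sets, a sign of RNA length, was 0.58, 6.08 and 0.43 on APE1 siRNA arrays, against 0.35, 0.20 and 0.13 on control siRNA arrays. The same difference of the GAPDH control probe sets was 0.57, 2.06 and 0.60 on APE1 siRNA arrays, against 0.08, 0.03 and 0.16 on control siRNA arrays, so that by both controls all 3 APE1 siRNA arrays were higher than every control array and replicate 2 was the highest. The part of this difference in the results was not tested. The loss on replicate 2 was largest at bright probe sets. A value in square brackets after a log2 fold change is the same value without that array.

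**Figure D1:**
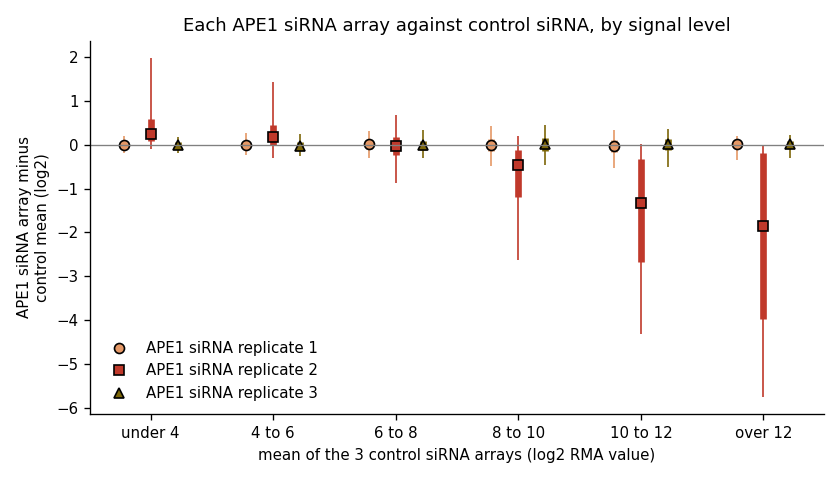
Difference of each APE1 siRNA array from the mean of the 3 control siRNA arrays (log2, vertical axis) for probe sets grouped by their control level (log2 RMA value, horizontal axis). Points are medians, thick bars the middle 50% and thin lines all but the lowest and the highest 5% of the probe sets; only replicate 2 moves away from 0, to a median of -1.85 at the brightest probe sets.

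APEX1, the gene for APE1 on chromosome 14, had 10.05, 8.43 and 10.18 on the APE1 siRNA arrays, against 12.20, 12.24 and 12.14 on the control siRNA arrays. All 3 APE1 siRNA arrays were below every control array, and replicate 2 was the lowest. APEX1 fell by 2.64 (SE 0.36, adjusted p = 0.00222), and its log2 fold change was -2.08 without replicate 2 (adjusted p = 9.76e-09). The 2 settings therefore gave the same direction, with a size that moved with replicate 2.

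A call took a Benjamini-Hochberg adjusted p under 0.05 in limma together with a log2 fold change of at least 0.32 in size. Of 19775 genes, 977 were called (4.94%): 366 were higher (1.85%) and 611 lower (3.09%) after APE1 siRNA, and at an unadjusted p under 0.05 the counts were 1241 and 2055. Without replicate 2, 961 were higher (4.86%) and 860 lower (4.35%). Both fits called 354 genes higher (1.79%) and 546 lower (2.76%), and no gene was called in opposite directions. The genes called in both fits had separate groups in all cases, as 23.9% of all genes did. A gene's value is that of its brightest probe set. As the mean over all probe sets of the gene, 90 of the named genes kept their side of the test, 4 newly passed, 51 no longer passed and 5 changed sign, APEX1 not being counted here. Below, that mean is given for some of the genes only, so its absence does not mean that the gene passed. The median log2 fold change of the genes called in both fits was 0.53 for the rises and -0.59 for the falls with replicate 2, and 0.55 and -0.53 without it. Over 2-fold in both fits were 33 rises and 47 falls. Of the genes called in both fits, 339 of the 354 higher and 527 of the 546 lower are protein coding.

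**Figure D2:**
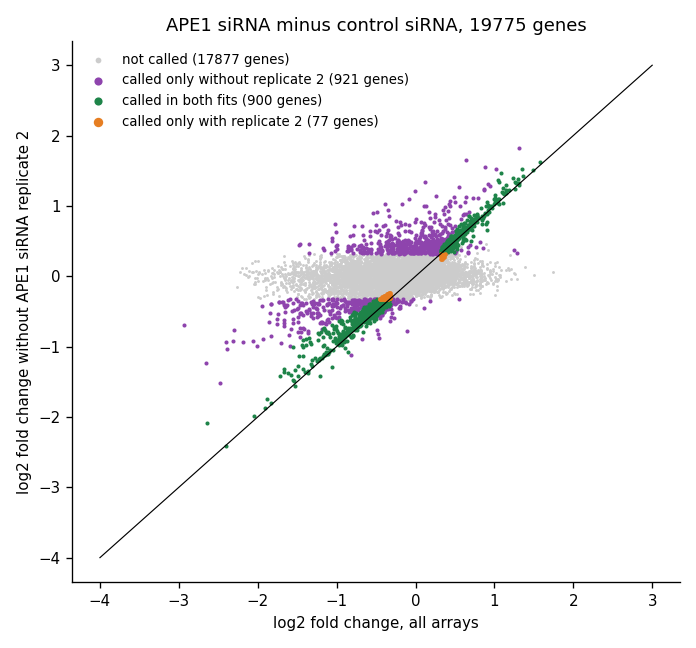
Log2 fold change of 19775 genes, APE1 siRNA minus control siRNA, with all arrays (horizontal axis) and without APE1 siRNA replicate 2 (vertical axis); each point is a gene and the line marks equal values. The 900 genes called in both fits lie near the line, and the 921 called only without replicate 2 lie mostly off it.

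The 15 largest falls included APEX1 itself and the genes CBR1, HDGFL3, IDH1 and VDAC1. CBR1, a carbonyl reductase that uses NADPH, had 7.65, 7.7 and 7.7 on the APE1 siRNA arrays, against 10.09, 9.94 and 10.23 on the control siRNA arrays. Its 3 siRNA arrays lay close together and far below the controls, and it fell by 2.4 (SE 0.1, adjusted p = 3.45e-06), with -2.41 without replicate 2 (adjusted p = 5.19e-08). HDGFL3, a member of the hepatoma-derived growth factor family, had 8.97, 8.81 and 9.0 on the APE1 siRNA arrays, against 10.98, 10.95 and 10.97 on the control siRNA arrays. The gene fell by 2.04 (SE 0.14, adjusted p = 3.12e-05), with -1.98 without replicate 2 (adjusted p = 1.21e-06). IDH1, the cytosolic isocitrate dehydrogenase, had 9.84, 9.72 and 9.8 on the APE1 siRNA arrays, against 11.59, 11.67 and 11.81 on the control siRNA arrays. It fell by 1.9 (SE 0.07, adjusted p = 3.17e-06), and without replicate 2 the value was -1.87. VDAC1, the main channel of the outer mitochondrial membrane, had 10.67, 10.62 and 10.81 on the APE1 siRNA arrays, against 12.21, 12.34 and 12.15 on the control siRNA arrays, and it fell by 1.53 (SE 0.09, adjusted p = 1.2e-05) [-1.49]. In CBR1, HDGFL3, IDH1 and VDAC1 the groups did not overlap and replicate 2 lay close to the other siRNA arrays.

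GAPDH, the glycolytic dehydrogenase often used as a loading reference, had 12.85, 12.36 and 12.92 on the APE1 siRNA arrays, against 14.26, 14.29 and 14.33 on the control siRNA arrays. It fell by 1.58 (SE 0.12, adjusted p = 6.84e-05), with -1.41 without replicate 2 (adjusted p = 5.56e-08). The array's separate GAPDH control probe sets also gave lower values after APE1 siRNA, at their 3' end 12.77, 10.17 and 12.85 on APE1 siRNA arrays, against 14.04, 13.96 and 14.02 on control siRNA arrays. Among other housekeeping genes, YWHAZ fell and the other 10 of the 12 measured were not called in both fits.

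Further large falls were found in RBCK1, a subunit of the linear ubiquitin chain ligase, at -1.83 (-1.8 without replicate 2, and -1.17, adjusted p = 0.0556, as the mean over its probe sets), in MANEAL, a Golgi mannosidase-like protein, at -1.88 (-1.75), in GET3, which delivers tail-anchored proteins to the endoplasmic reticulum, at -1.72 (-1.41), and in YIPF6, a Golgi membrane protein, at -1.66 (-1.32). SMAD5, which carries the signal of bone morphogenetic proteins to the nucleus, had 8.15, 7.25 and 8.27 on the APE1 siRNA arrays, against 9.62, 9.59 and 9.47 on the control siRNA arrays. All 3 siRNA arrays were below the controls, and it fell by 1.67 (SE 0.24, adjusted p = 0.00288), with -1.35 without replicate 2 (adjusted p = 1.61e-05). Of its further probe sets, 225223_at fell by 1.26 and 235451_at by 1.18, both called in both fits. DDAH1, which breaks down asymmetric dimethylarginine, changed by -1.61 (-1.38, but -0.3 as the mean over its probe sets), SHISA2, a membrane protein of the endoplasmic reticulum, by -1.55 (-1.48), and SF3A3, a splicing factor, by -1.53 (-1.33). HIBADH, an enzyme of valine breakdown, had 9.71, 8.11 and 9.82 on the APE1 siRNA arrays, against 10.79, 10.78 and 10.74 on the control siRNA arrays. Its fold change was -1.56 with and -1.0 without replicate 2, a difference of over 1.5 times on the log2 scale, and both values passed the test.

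The largest rises were smaller in size than the largest falls. DCLK1, a microtubule-associated kinase, had 6.97, 6.86 and 7.07 on the APE1 siRNA arrays, against 5.29, 5.44 and 5.44 on the control siRNA arrays. It rose by 1.58 (SE 0.14, adjusted p = 0.000155), with 1.63 without replicate 2 (adjusted p = 5.84e-06), and the groups were well apart. UQCC6, an assembly factor of respiratory complex III, had 9.11, 9.06 and 9.13 on the APE1 siRNA arrays, against 7.67, 7.57 and 7.62 on the control siRNA arrays and rose by 1.49 (SE 0.05, adjusted p = 2.07e-06) [1.51]. PTK2, the focal adhesion kinase, had 10.96, 10.81 and 10.92 on the APE1 siRNA arrays, against 9.61, 9.72 and 9.51 on the control siRNA arrays. It rose by 1.29 (SE 0.07, adjusted p = 1.2e-05), with 1.33 without replicate 2 (adjusted p = 2.58e-07). ABCG1, an exporter of cholesterol, had 7.75, 7.24 and 7.77 on the APE1 siRNA arrays, against 6.26, 6.17 and 6.28 on the control siRNA arrays. It rose by 1.35 (SE 0.12, adjusted p = 0.000187), and the value was 1.53 without replicate 2, the lowest of the siRNA arrays.

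NUP58, a protein of the nuclear pore, had 9.2, 9.23 and 9.23 on the APE1 siRNA arrays, against 7.92, 7.9 and 7.92 on the control siRNA arrays, and it rose by 1.31 (SE 0.06, adjusted p = 3.72e-06) [1.3]. As the mean over its probe sets the value was 0.18 (adjusted p = 0.429), which did not pass the test. EIF5A2, a translation factor that carries hypusine, changed by 1.31 [1.33], RP2, a GTPase-activating protein of cilia, by 1.36, and ANKRD46 by 1.27 [1.32]. Among surface proteins, the claudin CLDN12 changed by 1.3 [1.38] and CXADR, the coxsackievirus and adenovirus receptor at tight junctions, by 1.15 [1.23]. Among enzymes, the aldehyde oxidase AOX1 changed by 1.26 [1.34] and the thromboxane synthase TBXAS1 by 1.18 [1.23]. ANXA3, a phospholipid-binding annexin, changed by 1.26 [1.24], DENND1B, an exchange factor for Rab GTPases, by 1.15, and LY96, the partner of TLR4 in binding lipopolysaccharide, by 1.23 [1.39]. All of these rises passed the test with and without replicate 2, and without it they lay between 1.18 for DENND1B and 1.42 for RP2.

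**Figure D3:**
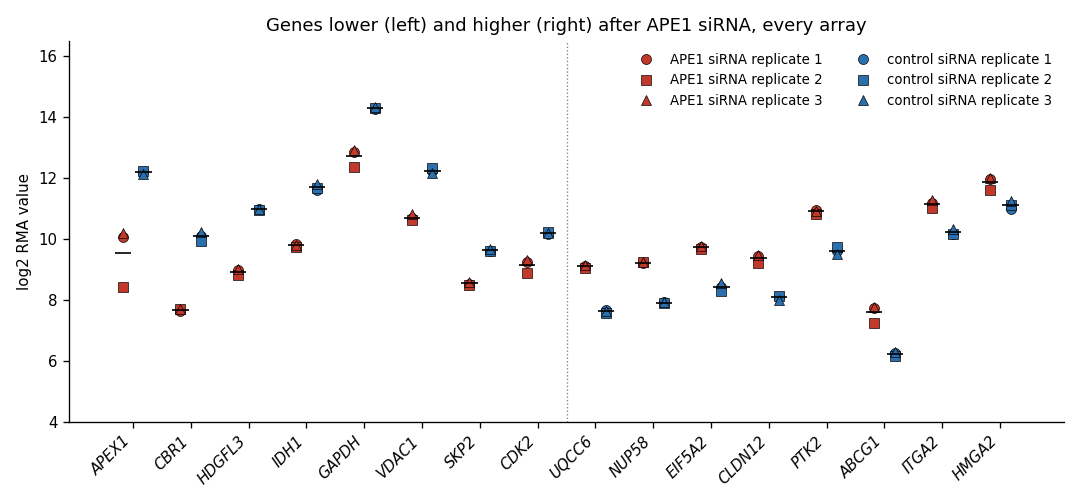
Log2 RMA value (vertical axis) of 16 genes on each of the 3 APE1 siRNA arrays (red) and the 3 control siRNA arrays (blue), with horizontal bars at the group means; genes lower after APE1 siRNA stand left of the dotted line and genes higher right of it. The groups of each gene shown do not overlap, and replicate 2 (squares) is the lowest siRNA array in most of them.

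Base excision and strand-break repair changed in few genes besides the target. Counts in this and the following gene lists are of genes called in both fits, as were 1.79% of all genes higher and 2.76% lower. Replicate 2 was low at bright probe sets, so this rule can miss rises there. It left out 607 genes called higher and 314 called lower only without replicate 2. Of 22 genes measured, APEX1 and TDG fell and none rose, and the median log2 fold change was -0.28 with replicate 2 and -0.07 without it, where that of all genes was -0.03 and 0.00. TDG, the glycosylase that removes thymine and oxidized methylcytosine from DNA, had 8.87, 8.5 and 8.91 on the APE1 siRNA arrays, against 9.19, 9.23 and 9.28 on the control siRNA arrays. It fell by 0.47 (SE 0.11, adjusted p = 0.0369), with -0.34 without replicate 2 (adjusted p = 0.0115). As the mean over its probe sets TDG was at -0.31 (adjusted p = 0.0703), which did not pass the test. In the other repair pathways, 28 genes of homologous recombination, Fanconi and mismatch repair, the ubiquitin ligase FANCL rose (0.37 [0.4]) and FANCC (-0.38 [-0.42]) and ATM, the kinase that signals double-strand breaks, fell. ATM had 7.74, 7.58 and 7.82 on the APE1 siRNA arrays, against 8.42, 8.35 and 8.1 on the control siRNA arrays and fell by 0.58 (SE 0.11, adjusted p = 0.0127) [-0.51], with -0.23 as the mean over its probe sets. That mean was -0.13 for FANCC, and neither ATM (adjusted p = 0.18) nor FANCC (0.459) passed the test by it. Without replicate 2 NBN (0.50) was called higher and RAD51C (-0.44) lower as well. Among 23 known partners of APE1 only MDM2, the ubiquitin ligase of p53, was called in both fits, at 0.35 [0.36]. Without replicate 2 STAT3 was called at 0.74 and KAT2B at -0.51 as well.

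Genes of G1 and mitosis were called higher only without replicate 2, and those called in both fits all fell. Of 31 G1 cyclins, kinases and inhibitors these were SKP2, CDK2 and E2F8, where 2.76% of all genes were lower, without replicate 2 CDK6 (0.73) was called higher, and the median was -0.23 with and 0.03 without replicate 2. SKP2, the F-box protein that marks the inhibitor p27 for degradation, had 8.53, 8.5 and 8.58 on the APE1 siRNA arrays, against 9.61, 9.6 and 9.68 on the control siRNA arrays. It fell by 1.09 (SE 0.07, adjusted p = 1.4e-05), with -1.07 without replicate 2 (adjusted p = 1.02e-06). CDK2, the partner kinase of cyclins E and A, had 9.24, 8.88 and 9.31 on the APE1 siRNA arrays, against 10.16, 10.22 and 10.20 on the control siRNA arrays and fell by 1.05 (SE 0.11, adjusted p = 0.000445). The siRNA arrays of both genes were below all controls, and without replicate 2 the values were -1.07 for SKP2 and -0.92 for CDK2. Of 38 genes of mitosis and the spindle checkpoint, TOP2A, CCNA2, UBE2C, CDC20 and CDCA8 fell in both fits, where 2.76% of all genes were lower, with a median of -0.46 with and -0.04 without replicate 2. The phosphatases CDC25A (0.50) and CDC25B (0.50), which activate cyclin-dependent kinases, were called higher and KIF20A (-0.38) lower only without replicate 2.

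CCNA2, cyclin A2, had 8.81, 8.59 and 8.77 on the APE1 siRNA arrays, against 9.45, 9.59 and 9.26 on the control siRNA arrays, and it fell by 0.71 (SE 0.11, adjusted p = 0.00387) [-0.64]. TOP2A, the topoisomerase that untangles DNA before mitosis, had 10.82, 10.72 and 10.88 on the APE1 siRNA arrays, against 11.34, 11.34 and 11.32 on the control siRNA arrays, and it fell by 0.53 (SE 0.06, adjusted p = 0.000515) [-0.49]. Its probe set 201291_s_at was called in neither fit, at -1.21 (adjusted p = 0.467) and, without replicate 2, -0.14 (adjusted p = 0.828). The mean over the TOP2A probe sets was -0.57 (adjusted p = 0.376), which did not pass the test. CDC20, the activator of the anaphase-promoting complex, had 9.68, 9.44 and 9.72 on the APE1 siRNA arrays, against 10.21, 10.03 and 10.16 on the control siRNA arrays, and it fell by 0.52 (SE 0.09, adjusted p = 0.00742) [-0.43]. No array of either group crossed over in CCNA2, TOP2A and CDC20 at the probe sets read. UBE2C, the ubiquitin-conjugating enzyme of the same complex, changed by -0.45 [-0.38] and CDCA8, a subunit of the chromosomal passenger complex with Aurora B, by -0.46 [-0.35]. No gene of 37 in DNA replication was called in both fits, with 5 at an unadjusted p under 0.05, and without replicate 2 RFC1 (0.36) and GMNN (0.40) were called higher and GINS1 (-0.70) lower.

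Promoters of genes that are active in G2 and mitosis often hold a CHR element and CCAAT boxes, and that of CCNA2 a cyclic AMP response element. The RefSeq promoters (GRCh38.p14, 250 bases before to 50 after the start) are shown for the mitotic genes that were called lower in both fits and are listed there. Each was called at its brightest probe set, TOP2A at that one only. Capitals mark the CRE (TGACGTCA) and CCAAT boxes in CCNA2, and the CHR (TTTGAA) and CCAAT boxes in the others, each on either strand; a CHR and a CCAAT box of CDCA8 overlap by 1 base. Their positions are CCNA2, chr4:121823834-121824133, minus strand; CDC20, chr1:43358731-43359030, plus strand; TOP2A, chr17:40417847-40418146, minus strand; and CDCA8, chr1:37692266-37692565, plus strand.
CCNA2: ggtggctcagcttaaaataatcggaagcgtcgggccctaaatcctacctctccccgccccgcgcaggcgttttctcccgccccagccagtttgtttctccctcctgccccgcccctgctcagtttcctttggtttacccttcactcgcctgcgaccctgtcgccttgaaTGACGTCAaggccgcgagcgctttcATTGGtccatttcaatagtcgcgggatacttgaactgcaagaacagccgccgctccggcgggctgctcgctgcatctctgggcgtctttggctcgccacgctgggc
CDC20: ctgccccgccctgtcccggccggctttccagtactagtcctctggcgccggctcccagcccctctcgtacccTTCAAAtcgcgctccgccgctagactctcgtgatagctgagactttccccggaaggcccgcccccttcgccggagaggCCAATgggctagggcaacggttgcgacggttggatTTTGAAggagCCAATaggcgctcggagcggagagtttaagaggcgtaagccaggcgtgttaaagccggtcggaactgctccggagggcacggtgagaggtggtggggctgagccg
TOP2A: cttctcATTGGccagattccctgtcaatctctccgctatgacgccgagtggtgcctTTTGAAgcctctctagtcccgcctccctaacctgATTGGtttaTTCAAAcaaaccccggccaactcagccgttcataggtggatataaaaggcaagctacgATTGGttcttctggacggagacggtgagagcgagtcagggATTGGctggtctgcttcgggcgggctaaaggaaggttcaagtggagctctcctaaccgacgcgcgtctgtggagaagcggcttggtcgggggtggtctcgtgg
CDCA8: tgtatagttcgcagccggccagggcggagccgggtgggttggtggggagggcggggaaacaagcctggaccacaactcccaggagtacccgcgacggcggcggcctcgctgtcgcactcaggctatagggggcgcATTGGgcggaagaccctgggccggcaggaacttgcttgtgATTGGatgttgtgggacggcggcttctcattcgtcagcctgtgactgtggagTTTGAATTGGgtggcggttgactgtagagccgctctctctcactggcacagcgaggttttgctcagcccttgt
CCNA2 held 1 CRE and 1 CCAAT box, CDC20 held 2 CHR and 2 CCAAT matches, TOP2A 2 and 4, and CDCA8 1 and 3. CCNA2 held no exact TTTGAA, but other forms of the CHR were not searched, so a CHR there is not excluded. Among 15384 measured genes with a promoter of this length, 3.10% held a CRE, 15.6% a CHR and 41.7% a CCAAT box. Of the genes called in both fits that had a promoter, the CHR was found in 15% of the 293 higher and in 12.9% of the 451 lower, and the CCAAT box in 43.3% and 43.2%.

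Of 26 p53 targets, MDM2 alone rose in both fits, with 10.03, 10.05 and 10.10 on the APE1 siRNA arrays, against 9.74, 9.71 and 9.68 on the control siRNA arrays, and it rose by 0.35 (SE 0.06, adjusted p = 0.0127) [0.36], but was at 0.08 as the mean over its probe sets, which did not pass. Without replicate 2, 7 were higher and SFN was lower, where 4.86% of all genes were higher and 4.35% lower in that fit. The median of the list was 0.13, against -0.05 with replicate 2. PMAIP1, which encodes the death-promoting BCL2 family member NOXA, had 10.44, 9.39 and 10.46 on the APE1 siRNA arrays, against 9.18, 9.21 and 9.31 on the control siRNA arrays. Its replicate 2 lay near the controls and the other siRNA arrays over 1 log2 above them, with a log2 fold change of 0.87 (adjusted p = 0.114) and, without replicate 2, of 1.22 (adjusted p = 3.74e-05). The dimmer PMAIP1 probe set 204286_s_at was called higher in both fits. The values there were 1.14 (adjusted p = 0.0444) and, without replicate 2, 1.51 (adjusted p = 8.77e-06). Of 25 apoptosis regulators none was called in both fits at the probe set read, with 9 at an unadjusted p under 0.05. At that threshold 1241 of all 19775 genes were higher and 2055 lower. Without replicate 2 PMAIP1, MCL1 (0.33), CYCS (0.32) and BCL2L1 (0.49) were higher.

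Immediate early genes were lower where they were called with both sets of arrays. Of 28 AP-1 subunits and immediate early genes, EGR1, FOS, FOSL1 and BATF3 fell in both fits and none rose, while the median was -0.17 with and 0.03 without replicate 2. FOS, the partner of JUN in AP-1, had 7.0, 7.74 and 7.15 on the APE1 siRNA arrays, against 8.05, 8.11 and 8.29 on the control siRNA arrays, and here replicate 2 was the siRNA array nearest to the controls. It fell by 0.86 (SE 0.17, adjusted p = 0.017), with -1.08 without replicate 2 (adjusted p = 1.09e-05). EGR1, a zinc finger factor induced by growth factors, had 8.99, 7.73 and 8.97 on the APE1 siRNA arrays, against 9.99, 10.00 and 9.95 on the control siRNA arrays. It fell by 1.42 (SE 0.27, adjusted p = 0.0151), with -1.0 without replicate 2 (adjusted p = 9e-07), so that its size moved with replicate 2. FOSL1, which encodes the AP-1 subunit FRA1, had 9.26, 8.84 and 9.2 on the APE1 siRNA arrays, against 9.81, 9.8 and 9.86 on the control siRNA arrays and fell by 0.72 (SE 0.11, adjusted p = 0.00365) [-0.59]. Without replicate 2 the directions were mixed, with JUN (0.34), IER3 (0.48), ATF3 (0.42) and IER5 (0.41) called higher and MYC (-0.39) and FOSB (-0.38) lower.

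Among 26 genes of ERK feedback and the EGF family, the phosphatases DUSP5, which acts on ERK in the nucleus, and DUSP7, which acts on it in the cytoplasm, fell, and the ligand betacellulin rose. DUSP5 had 9.55, 9.45 and 9.61 on the APE1 siRNA arrays, against 10.20, 10.33 and 10.26 on the control siRNA arrays and fell by 0.73 (SE 0.08, adjusted p = 0.000896) [-0.68]. DUSP7 changed by -0.64 [-0.5] and BTC by 0.66 [0.62], with ETV1 (0.70) and SPRY4 (0.49) higher and SPRY2 (-0.56) lower only without replicate 2, and the list's median was -0.13 with and 0.01 without replicate 2.

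The NF-kB pathway and its inflammatory targets changed in both directions. Of 33 genes, CXCL8 and IL1A rose and CXCL2, NFKBIE, NFKB2, NFKBIZ, TNFAIP3 and RBCK1 fell, where 1.79% of all genes were higher and 2.76% lower, and the median was -0.23 with and -0.11 without replicate 2. CXCL8, the neutrophil chemokine interleukin 8, had 10.64, 10.59 and 10.69 on the APE1 siRNA arrays, against 9.92, 9.91 and 9.99 on the control siRNA arrays. It rose by 0.7 (SE 0.06, adjusted p = 0.000212), with 0.73 without replicate 2 (adjusted p = 2.23e-05). As the mean over its probe sets it was at 0.32 (adjusted p = 0.492), which did not pass the test. CXCL2, a chemokine for the same cells, had 10.96, 10.73 and 10.90 on the APE1 siRNA arrays, against 11.44, 11.39 and 11.35 on the control siRNA arrays and fell by 0.53 (SE 0.07, adjusted p = 0.0014) [-0.47]. At the probe sets read, the chemokines thus moved in opposite directions with no overlap of the groups. The cytokine gene IL1A changed by 0.48 [0.49], NFKBIE by -0.57 [-0.43], NFKBIZ by -0.38 [-0.34] and TNFAIP3 by -0.35 [-0.34]. IL6 (-0.92) and CCL2 (-0.56) were called lower and IL1B (0.49) higher only without replicate 2.

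Interferon-stimulated genes showed no common direction. Of 33 measured, SP110, IFI16 and ISG15 rose, IFIT5, IRF9 and IFI35 fell, and the median was -0.02 with and 0.05 without replicate 2. IFI16, a sensor of DNA, had 7.58, 7.55 and 7.47 on the APE1 siRNA arrays, against 7.01, 6.79 and 6.91 on the control siRNA arrays and rose by 0.63 (SE 0.07, adjusted p = 0.000555) [0.62]. IFI35 changed by -0.65 [-0.57], SP110 by 0.58 [0.64] and ISG15, the ubiquitin-like modifier, by 0.42 [0.42], and GBP3 (1.05) and ISG20 (0.36) were higher only without replicate 2. Of 23 genes of complement and MHC class I, the peptide transporter subunits TAP1 (-0.54 [-0.37]) and TAP2 (-0.45 [-0.37]) and the complement protease C1S (-0.47 [-0.35]) fell and none rose in both fits, while without replicate 2 CD46 (0.71) was higher and CD59 (-0.38) lower. As means over their probe sets, TAP2 was at -0.02 and TAP1 at -0.54 (adjusted p = 0.0522), and neither passed.

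Among lipid genes, members of sterol metabolism changed in both directions. Of 27 genes of cholesterol synthesis and uptake, ABCG1, STARD4, MYLIP and HMGCS1 rose and EBP fell. MYLIP, a ubiquitin ligase that degrades the LDL receptor, changed by 0.68 [0.71], STARD4, a sterol carrier, by 0.46 [0.54] and HMGCS1, an early enzyme of sterol synthesis, by 0.56 [0.66]. EBP, a late enzyme of that pathway, had 9.85, 9.15 and 9.9 on the APE1 siRNA arrays, against 10.64, 10.62 and 10.76 on the control siRNA arrays and fell by 1.04 (SE 0.17, adjusted p = 0.00619) [-0.8]. Among 24 genes of fatty acid metabolism, ELOVL6, CPT1A, ACSL4 and TECR fell in both fits, while ELOVL2 (0.47) and HSD17B12 (0.41) were called higher only without replicate 2. ELOVL6, which elongates palmitate, had 8.11, 7.75 and 8.12 on the APE1 siRNA arrays, against 9.34, 9.36 and 9.2 on the control siRNA arrays. It fell by 1.31 (SE 0.11, adjusted p = 0.000111), with -1.18 without replicate 2 (adjusted p = 1.3e-06). CPT1A, which admits fatty acids to mitochondria, changed by -0.47 [-0.51], ACSL4, which activates arachidonate, by -0.56 [-0.54], and TECR, the last enzyme of the elongation cycle, by -0.58 [-0.42]. EBP, HMGCS1, CPT1A, ACSL4 and TECR did not pass the test as means over their probe sets, at -0.77, 0.29, -0.06, -0.16 and -0.25. The medians were near those of all genes, at -0.10 for sterol and -0.13 for fatty acid genes, and 0.07 and -0.04 without replicate 2.

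In central carbon metabolism, GAPDH fell and SLC16A7 and PDK1 rose among 29 genes of glycolysis and lactate transport, and IDH1 and VDAC1 fell and SUCLG2 rose among 25 of the TCA cycle and mitochondrial carriers. SLC16A7, the monocarboxylate transporter MCT2, had 7.23, 7.1 and 7.47 on the APE1 siRNA arrays, against 6.3, 6.05 and 6.14 on the control siRNA arrays. It rose by 1.1 (SE 0.14, adjusted p = 0.00161), with 1.19 without replicate 2 (adjusted p = 7.82e-05). SUCLG2, a subunit of succinyl-CoA ligase, changed by 0.54 [0.55] and PDK1, which inhibits pyruvate dehydrogenase, by 0.33 [0.33]. As the mean over its probe sets PDK1 was at 0.13 (adjusted p = 0.479), which did not pass the test. Among 25 hypoxia genes ERO1A, an oxidase of the endoplasmic reticulum, rose by 0.74 (0.82 without replicate 2), PDK1 rose and the carbonic anhydrase CA12 changed by -0.5 [-0.43]. Of 32 respiratory chain genes only UQCC6 was called in both fits, and the median of that list was -0.74 with and 0.09 without replicate 2.

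Of 33 NRF2 targets and redox enzymes, CBR1 and IDH1 fell and the aldo-keto reductases AKR1C1 (0.33 [0.36]) and AKR1C3 (0.53 [0.58]) rose, and the median was -0.67 with and 0.00 without replicate 2. AKR1C3 had 12.55, 12.43 and 12.61 on the APE1 siRNA arrays, against 12.07, 11.98 and 11.97 on the control siRNA arrays. The genes AKR1C1 and AKR1C3 are closely similar copies, so their probe sets may share transcripts. Of 30 genes of ATF4 and amino acid metabolism, SLC3A2, the heavy chain of the leucine transporter, and SLC1A5, the glutamine transporter, fell and none rose in both fits. SLC3A2 had 10.74, 10.58 and 10.78 on the APE1 siRNA arrays, against 11.32, 11.53 and 11.59 on the control siRNA arrays and fell by 0.78 (SE 0.11, adjusted p = 0.00217) [-0.72]. SLC7A5, the light chain that pairs with SLC3A2, had 11.77, 8.88 and 11.75 on the APE1 siRNA arrays, against 13.20, 13.33 and 13.29 on the control siRNA arrays, which passed the test only without replicate 2 (-2.48, adjusted p = 0.0541, and -1.52, adjusted p = 7.53e-08). SLC1A5 changed by -0.67 [-0.49]. Of 23 ER chaperone and unfolded protein response genes the stress sensors ATF6 (0.59 [0.61]) and ERN1 (0.6 [0.62]), the gene for IRE1, rose and none fell, and WARS1 (-0.44 [-0.32]) was the one tRNA synthetase of 28 called in both fits. As means over their probe sets, ATF6 (0.21, adjusted p = 0.582), ERN1 (0.095, 0.596) and WARS1 (-0.68, 0.184) did not pass the test.

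Adhesion and matrix genes held rises and falls. Among 30 integrin, laminin and focal adhesion genes PTK2, ITGA2 and LAMA5 rose and VCL and LAMC1 fell. ITGA2, the collagen-binding integrin subunit, had 11.19, 11.02 and 11.27 on the APE1 siRNA arrays, against 10.17, 10.17 and 10.33 on the control siRNA arrays. It rose by 0.93 (SE 0.08, adjusted p = 0.000155), with 1.0 without replicate 2 (adjusted p = 2.52e-06). VCL, vinculin, which ties integrins to actin, had 12.56, 12.40 and 12.47 on the APE1 siRNA arrays, against 13.09, 13.11 and 13.07 on the control siRNA arrays and fell by 0.61 (SE 0.06, adjusted p = 0.000259) [-0.57]. The laminin subunits went apart, LAMA5 at 0.37 [0.44] and LAMC1 at -0.69 [-0.58]. Of 35 matrix genes and proteases, TIMP2, COL6A1 and THBS1 fell and TNC rose. TIMP2, an inhibitor of matrix metalloproteinases, had 9.92, 9.87 and 10.02 on the APE1 siRNA arrays, against 11.28, 11.33 and 11.39 on the control siRNA arrays and fell by 1.39 (SE 0.06, adjusted p = 3.45e-06) [-1.36], the groups being over 1 log2 apart. THBS1, thrombospondin, changed by -0.89 [-0.87], COL6A1 by -0.92 [-0.78] and tenascin TNC by 0.39 [0.44], and as means over their probe sets they were at -0.26, -0.01 and 0.27 and did not pass. SPARC, TGFBI, FBN1, LOXL2 and COL4A1 were higher only without replicate 2, between 0.33 for SPARC and 0.49 for COL4A1.

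Of 27 YAP and SRF targets, TAGLN (-0.86 [-0.76]), LATS2 (-0.92 [-0.68]), AMOTL2 (-0.52 [-0.47]), CCN2 (-0.47 [-0.51]) and CALD1 (-0.39 [-0.35]) fell and CRIM1 (0.66 [0.68]) rose in both fits. CCN2, connective tissue growth factor, had 7.53, 7.67 and 7.6 on the APE1 siRNA arrays, against 8.01, 8.09 and 8.12 on the control siRNA arrays. CALD1, caldesmon, was at 0.00 after a further quantile normalization of the arrays. Of 29 genes of SMAD signalling and the TGF-beta family, SMAD5, the inhibin subunit INHBA (-0.52 [-0.54]) and the ligand TGFB2 (-0.56 [-0.51]) fell and the receptor ACVR1 (0.42 [0.52]) rose. ID1 (-0.81) and ID3 (-0.68), targets of SMAD5 and its relatives, were called lower only without replicate 2. Among 25 epithelial and mesenchymal markers CLDN12 alone was called in both fits.

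Among genes for chromatin proteins, the histone genes H1-10 (0.47 [0.51]) and H2BC5 (0.35 [0.4]) and HMGA2 rose and H4C8 (-0.95 [-0.81]) and HMGN4 (-0.61 [-0.57]) fell, of 25 histone and high mobility group genes. As the mean over its probe sets H2BC5 was at 0.10 (adjusted p = 0.807), which did not pass the test. HMGA2, an architectural factor of embryonic and tumour cells, had 11.96, 11.59 and 11.99 on the APE1 siRNA arrays, against 10.97, 11.11 and 11.23 on the control siRNA arrays and rose by 0.74 (SE 0.12, adjusted p = 0.00556) [0.87] at its brightest probe set. Its probe sets 1561633_at and 1567224_at were called lower, at -0.38 and -0.58, and the mean over its probe sets was -0.08, so the gene has no single direction here. KAT6A, a histone acetyltransferase, changed by -0.5 [-0.42] as the only one of 30 deacetylases and acetyltransferases called in both fits. As the mean over its probe sets it was at -0.24 (adjusted p = 0.203), which did not pass the test. Of 7 genes for 14-3-3 proteins, which bind phosphorylated partners, YWHAZ and YWHAH fell. YWHAZ had 11.11, 10.93 and 11.33 on the APE1 siRNA arrays, against 12.14, 12.39 and 12.19 on the control siRNA arrays and fell by 1.12 (SE 0.11, adjusted p = 0.00042) [-1.02], and YWHAH changed by -0.45 [-0.4], though its mean over probe sets was 0.06.

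The machinery of RNA interference and mRNA decay changed in single members. Of 26 genes, DCP2, AGO4 and TNRC6C rose and AGO2 and CNOT8 fell. AGO2, the Argonaute that cleaves the target of an siRNA, had 7.22, 7.38 and 7.21 on the APE1 siRNA arrays, against 7.84, 7.79 and 7.74 on the control siRNA arrays. It fell by 0.52 (SE 0.09, adjusted p = 0.0097), with -0.57 without replicate 2 (adjusted p = 0.000939). DCP2, the decapping enzyme, had 9.9, 8.71 and 9.88 on the APE1 siRNA arrays, against 8.47, 8.52 and 8.26 on the control siRNA arrays and rose by 1.08 (SE 0.26, adjusted p = 0.0496) [1.47], and replicate 2 was nearly at the level of the controls. AGO4 changed by 0.54 [0.6], TNRC6C, a scaffold of silencing complexes, by 0.44 [0.51], and CNOT8, a deadenylase, by -0.66 [-0.54]. As means over their probe sets, AGO4 (0.12, adjusted p = 0.423), TNRC6C (0.04, 0.658) and CNOT8 (-0.84, 0.147) did not pass the test.

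MALAT1, an abundant long noncoding RNA of nuclear speckles, gave different values at its 12 probe sets. At 224559_at it had 6.87, 6.42 and 6.73 on the APE1 siRNA arrays, against 10.43, 10.60 and 10.36 on the control siRNA arrays. All siRNA arrays were over 3 log2 below the controls there. The difference between the groups was -3.79 (SE 0.20, adjusted p = 8.71e-06), and -3.67 without replicate 2. Probe sets 228582_x_at (-1.79) and 224558_s_at (-0.63) were lower in both fits as well. At the brightest probe set, 224567_x_at, the values were 10.83, 7.5 and 10.76 on the APE1 siRNA arrays, against 11.36, 11.15 and 10.84 on the control siRNA arrays. There the groups were apart only by a small margin apart from replicate 2, and the log2 fold change was -1.42 (adjusted p = 0.419), or -0.32 without replicate 2. The other 8 probe sets were not called in both fits. Which part of the transcript each probe set reads is not given in the sources used here. Of 12 nuclear and snoRNA-host noncoding RNAs only OIP5-AS1 (0.4 [0.4]) was called in both fits at the probe set read for the gene.

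**Figure D4:**
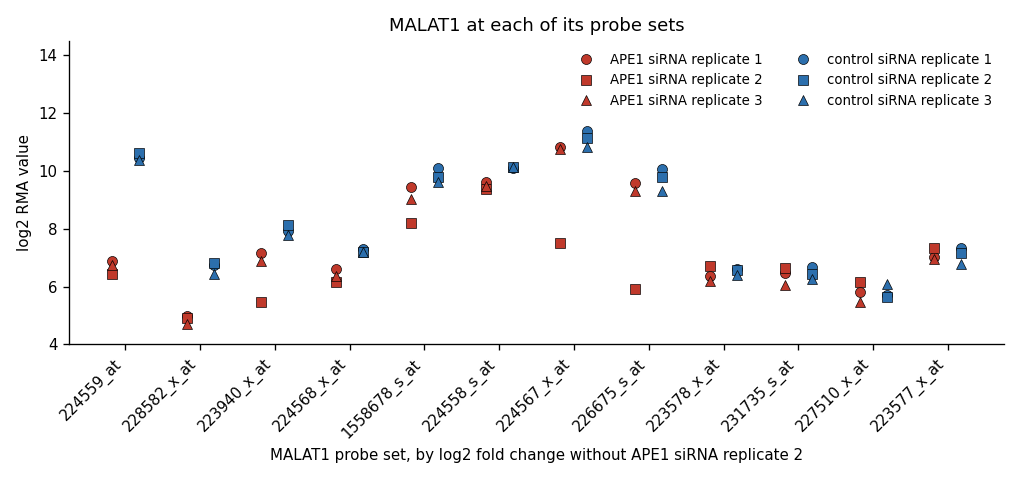
Log2 RMA value (vertical axis) of the 12 MALAT1 probe sets on each of the 3 APE1 siRNA arrays (red) and the 3 control siRNA arrays (blue), ordered by log2 fold change without APE1 siRNA replicate 2. The groups are furthest apart at 224559_at, and at several bright probe sets replicate 2 alone is far below the rest.

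Several families of bright genes stood lower as whole lists on replicate 2 alone. The median difference of 24 ribosomal protein genes from the control mean was 0.07, -3.64 and 0.06 on the APE1 siRNA arrays, that of 26 proteasome and ubiquitin genes -0.02, -2.41 and -0.02, and that of the 7 14-3-3 genes -0.02, -2.43 and -0.02. No ribosomal protein or proteasome gene was called in both fits; at an unadjusted p under 0.05 there were 0 and 3, and PSMB7 (-0.92) was called without replicate 2. The 2 ABC transporters called in both fits of 24 measured were ABCG1 and ABCD3 (0.39 [0.39]), a peroxisomal carrier, both higher.

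**Figure D5:**
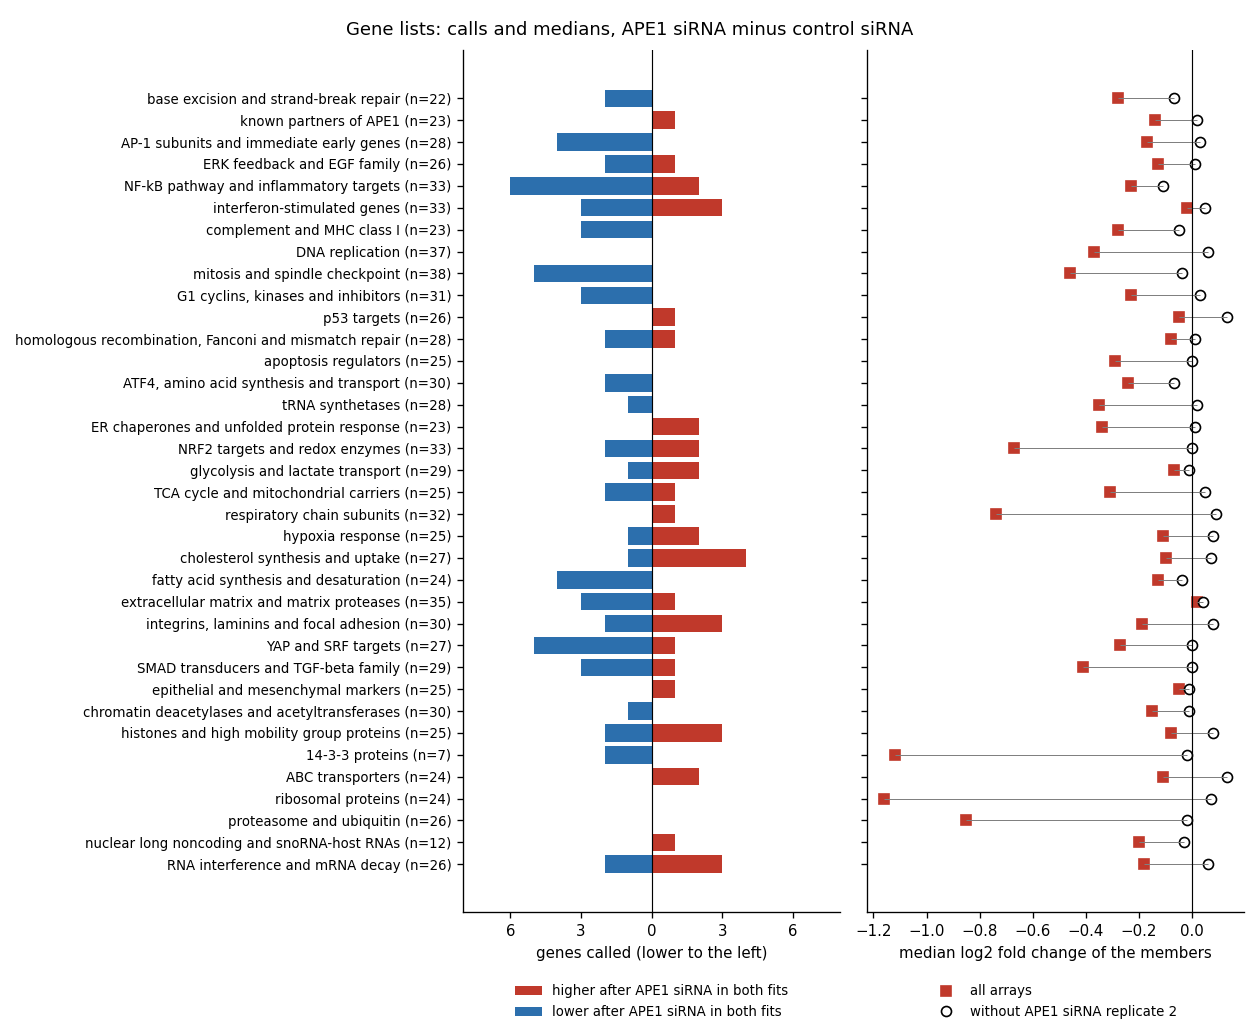
Left, number of genes of each list called higher (red, to the right) or lower (blue, to the left) after APE1 siRNA both with and without replicate 2; right, median log2 fold change of the members with all arrays (squares) and without replicate 2 (circles), n being the genes measured; the lists of housekeeping genes, cell markers and genes measured by RT-PCR are not drawn. The medians of these lists without replicate 2 lie between -0.11 and 0.13, and with it reach -1.16 in ribosomal protein genes.

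Genes that the study also measured by RT-PCR in A549 cells were picked by it from its own arrays, apart from its reference HPRT1. Their array values are therefore no independent evidence of direction. For the picked genes the study reports similar RT-PCR patterns with the siRNA of the arrays and with a further APE1 siRNA. Those RT-PCR values were not used here. Of the 7 genes with RT-PCR, HPRT1 included, HDGFL3, CDK2 and CCNA2 fell in both fits. RAC1, which acts on the actin cytoskeleton, had 12.08, 5.37 and 12.11 on the APE1 siRNA arrays, against 12.80, 12.78 and 12.78 on the control siRNA arrays, so that replicate 2 alone was far below the others. Its log2 fold change was -2.94 (adjusted p = 0.392), and -0.69 without replicate 2 (adjusted p = 8.23e-06). SFN, the 14-3-3 protein sigma, was likewise called only without replicate 2, at -0.54 (adjusted p = 0.00015). The histone variant gene MACROH2A1 and HPRT1 were not called in either fit, with -0.34 and -0.26, and 0.08 and 0.17 without replicate 2.

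Many genes were called only without replicate 2, 607 higher and 314 lower, and on that array 598 and 305 of them lay outside the range of replicates 1 and 3. The largest was NAP1L5, a nucleosome assembly protein-like gene, with 9.03, 7.43 and 8.97 on the APE1 siRNA arrays, against 7.24, 7.31 and 6.95 on the control siRNA arrays, and 1.31 with and 1.83 without that array. CP, the copper-carrying ferroxidase ceruloplasmin, had 8.53, 5.54 and 8.6 on the APE1 siRNA arrays, against 7.15, 6.78 and 6.82 on the control siRNA arrays, so that replicate 2 was below the controls and replicates 1 and 3 above them. SERPINB9, an inhibitor of granzyme B, had 10.73, 9.23 and 10.72 on the APE1 siRNA arrays, against 9.21, 9.23 and 9.18 on the control siRNA arrays and a value of 1.52 without replicate 2. The others of largest size were KLHL2 (1.56), an adaptor of a ubiquitin ligase, GPAT3 (1.34), an enzyme of triglyceride synthesis, the magnesium transporter NIPA1 (1.31), the kinase FRK (1.28) and SLC7A5. Called only with replicate 2 were 12 higher and 65 lower genes, the largest being TBC1D9 (-0.46 with and -0.32 without it), RALGAPA1 (-0.44 [-0.32]), MRPL20 (-0.44 [-0.32]), CAD (-0.43 [-0.3]), MDM1 (-0.42 [-0.32]), OAZ2 (-0.41 [-0.31]), GTF3C1 (-0.4 [-0.28]) and CHFR (-0.4 [-0.3]). All 8 kept their sign and an adjusted p under 0.05 without replicate 2, and their log2 fold change there was, before rounding, smaller in size than the 0.32 that a call takes.

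Probe sets of the same gene were compared, since 10523 genes had 2 or more. The 354 higher genes had 599 further probe sets, of which 443 had the same sign without replicate 2, 62 were called the same way in both fits and 9 the other way in at least 1 fit, and the 546 lower genes had 910, of which 708, 180 and 12 were so. Of all further probe sets, 48.3% were positive and 51.7% negative by sign without replicate 2. CCDC88A, the actin-binding protein girdin, was called at -1.12 [-0.80] at 225045_at and at 1.08 [1.15] at 239233_at. LIFR, the receptor of leukaemia inhibitory factor, was called at 0.78 [0.78] at 225575_at and at -0.46 [-0.39] at 205876_at. ELK4, an ETS factor, was called at 0.98 [1.07] at 238761_at and at -0.72 [-0.83] at 206919_at. TMEM165, BICD1, FXR1 and LCORL each fell at the probe set read and rose at another. The rises were 0.86 [0.85] at 230657_at, 0.77 [0.79] at 242228_at, 0.42 [0.49] at 229519_at and 0.57 [0.53] at 232293_at. Other genes were called in both fits only at a dimmer probe set than the one read. Their largest values with replicate 2 were ARSB at -1.83 [-1.77], PRSS23 at -1.66 [-1.11], SLC30A9 at -1.63 [-1.44] and TPGS2 at -1.56 [-1.41]. PRELID1 was at -1.48 [-1.28], RAC1 at -1.75 [-1.12] and UBE2V2 at 1.43 [1.16].

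The same siRNA contrast was available in cells given TSA, on 6 arrays that share none with this comparison. Its calls came from the same fit of 12 arrays, whose estimate of the spread of each probe set includes APE1 siRNA replicate 2. With TSA, RAC1 was at -0.87, with limma's adjusted p at 0.976 in that fit and 2.39e-07 in the fit without replicate 2. In the fit of 12 arrays 377 genes were higher (1.91%) and 667 lower (3.37%) with TSA. Of the 354 genes higher without TSA in both fits, 324 were higher by sign with TSA, 199 were called higher and 4 lower, and 57.1% of all genes were positive by sign. Of the 546 lower genes, 527 were lower by sign with TSA, 365 were called lower and 0 higher, and 42.9% of all genes were negative by sign. APEX1 changed by -2.26, CBR1 by -2.36, HDGFL3 by -2.81, IDH1 by -1.76 and VDAC1 by -1.85 with TSA. Among rises, UQCC6 changed by 1.6, NUP58 by 1.65 and PTK2 by 1.41. HIBADH, at -0.89 (adjusted p = 0.269), was the one gene of the 15 largest falls that was not called there, though the same value had an adjusted p of 6.64e-07 in the fit of 11 arrays without replicate 2, an array that is not in this contrast. EGR1 (0.03), FOS (-0.15), CDC20 (0.04) and UBE2C (-0.04) were lower without TSA and were not called with it. The difference between the contrasts did not pass limma's test in these 4 genes (adjusted p = 0.346, 0.583, 0.237 and 0.279), while without replicate 2 it passed in EGR1 (adjusted p = 0.00015), FOS (0.00439) and CDC20 (0.0404) and not in UBE2C (0.079).

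Of 19 markers of A549 and alveolar epithelium, AKR1C1 and AKR1C3 were higher and the other 17 were not called in both fits. Of the marker lists of other cells, 10 leukocyte, 10 fibroblast and 9 endothelial markers had 0 calls and 0 at an unadjusted p under 0.05. Their mean log2 value was 6.22 to 6.37, 6.37 to 6.46 and 6.27 to 6.32 on APE1 siRNA arrays, against 6.17 to 6.20, 6.34 to 6.41 and 6.26 to 6.36 on control siRNA arrays. Of 9 markers of airway basal and ciliated cells the keratin KRT15 fell, with 5.2, 5.36 and 5.1 on the APE1 siRNA arrays, against 5.76, 5.88 and 5.91 on the control siRNA arrays, and -0.63 with and -0.7 without replicate 2.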

How the data were processed

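Total RNA of 21 samples, 3 per group, was hybridized to Affymetrix HGU133 Plus 2.0 arrays. Per the labels and the methods, the authors corrected background by RMA and normalized by quantiles in affy, and deposited 1 log2 value per probe set and array. Their versions are not stated here. Tables of limma comparisons with fold changes and p-values were deposited too and were not used.

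Groups came from the sample titles. All 12 A549 arrays were fitted with limma 3.58.1 in R 4.3.3 (lmFit, eBayes), as 4 group means, on the log2 values as deposited. Benjamini-Hochberg adjustment ran over 54613 probe sets, without the 62 Affymetrix controls. The fit without APE1 siRNA replicate 2 used 11 arrays. The platform annotation gives 41091 probe sets 1 symbol, 1801 several and 11721 none; a gene (19775 in all) was represented by its brightest probe set on average over the A549 arrays. Control siRNA was subtracted from APE1 siRNA, and a call took an adjusted p under 0.05 and a log2 fold change of at least 0.32 in size.

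Named genes were the 15 largest rises and 15 largest falls called in both fits, up to 5 genes per list, the 8 largest called in 1 fit only on each side, up to 8 genes whose probe sets were called in opposite directions, the 8 largest called only at another probe set, the genes measured by RT-PCR and the 6 called genes with the smallest adjusted p for a difference by TSA. PMAIP1, TAGLN and list members called only without replicate 2 were named after their values were seen. The comparison, the 43 gene lists and these rules were chosen with earlier results of these data known. Promoters came from RefSeq (GRCh38.p14), for 15384 of the genes. The alternatives were other sets of arrays, a replicate block, further normalizations, array weights, filters, thresholds, other ways to combine probe sets, and each array left out in turn. The steps were tested on simulated data. Arrays have no read depth, so their number sets the precision.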

Additional observations from a re-analysis of the deposited data

Results flagged for a closer look

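In 8 results the effect of APE1 siRNA differed with TSA by limma's test of the difference itself (the siRNA effect without TSA minus that with TSA, adjusted over all probe sets). CXCL2 changed by -0.53 without and by -1.79 with TSA, a difference of 1.253 (adjusted p = 0.0045), and TFPI, the inhibitor of tissue factor, changed by -0.89 and -2.20, a difference of 1.31 (adjusted p = 0.0045). RAP2C, a Ras-related GTPase, changed by -0.77 and -1.43, a difference of 0.66 (adjusted p = 0.039). In these 3 genes the fall was larger with TSA. IFI16 was higher without TSA at 0.63 and lower with it at -0.43, a difference of 1.06 (adjusted p = 0.00634), and the growth factor PDGFC likewise at 0.34 and -0.48, a difference of 0.82 (adjusted p = 0.0271). SHISA2 changed by -1.55 and -0.50, a difference of -1.05 (adjusted p = 0.00709), and CXCL8 by 0.70 and 0.02, a difference of 0.68 (adjusted p = 0.0452). MALAT1 at probe set 224559_at changed by -3.79 without TSA and by -0.45 with it, a difference of -3.34 (adjusted p = 0.0045); with TSA its mean was 9.40 after APE1 siRNA and 9.85 after control siRNA. Without replicate 2 all 8 differences kept their sign and an adjusted p under 0.05. Further named genes passed limma's test of the difference only in that fit, among them ABCG1 (0.87, adjusted p = 0.000301) and SERPINB9 (0.93, adjusted p = 0.00017). The 8 are therefore not all the results that differed with TSA.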

How the results depend on the processing

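Over fits that leave out 1 of the 12 arrays, 260 to 961 genes were higher and 396 to 860 lower, where the highest of both came without APE1 siRNA replicate 2; without control siRNA replicate 2 or 3, 397 and 396 were lower. The APEX1 log2 fold change lay between -2.95 and -2.08 in these fits. With only the 6 arrays compared, 110 genes were higher and 175 lower and APEX1 kept -2.64 with an adjusted p of 0.0949; with 5 arrays, replicate 2 left out, 992 were higher. All 21 arrays in a single fit gave 932 lower genes, array weights 958 higher and 919 lower, and a further quantile normalization 237 lower with 12 arrays and 942 higher with 11. That normalization with 12 arrays gave 304 higher and 237 lower genes. Of these, 184 and 184 were among the 366 and 611 called on the values as deposited. Of the named genes, APEX1 not counted, 72 kept their side of the test there, 6 newly passed, 70 no longer passed and 2 changed sign. Averaging the probe sets of a gene gave 217 higher genes, taking any of them 578, and an adjusted p under 0.01 gave 226 higher and 353 lower. Taking any probe set, 13 genes were called in both directions. Under the other sets of arrays, normalizations and filters, array weights and probe set means, no gene was called opposite to the fit of the report.

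Replicate numbers in the labels were not taken as pairs: deviations from the group means correlated at -0.079 to 0.264 between same-numbered arrays of different groups, and at -0.007 to 0.027 between the groups compared. With the replicate number as a block, 314 genes were higher and 518 lower.

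Over the named genes and settings, 2869 values kept their direction and side of the threshold, 492 no longer passed, 79 newly passed and 7 changed sign. CALD1 (0.0035) and TMEM165 (0.0099) did so after the further quantile normalization of 12 arrays, and HMGA2 (-0.081), YWHAH (0.0602), TMEM165 (0.20), CCDC88A (0.0107) and BICD1 (0.0264) as means of their probe sets, which combine probe sets of opposite sign. The cause of the other changes was not tested.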

Other observations

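The promoters of the genes called in both fits were searched for further motifs, on both strands, as a description with no test. TGACNNNGC, the core of the antioxidant response element, was found in 21.8% of the 293 higher and 24.2% of the 451 lower genes with a RefSeq promoter, and in 18.4% of the 15384 measured. TGANTCA, the AP-1 site, was found in 11.3% of the higher and 7.32% of the lower genes, and in 8.10% of those measured. The EGR site GCGTGGGCG was found in 1.37% of the higher and 2.00% of the lower genes, and in 1.42% of those measured, and the E2F site TTTGGCGC in 0.341%, 1.33% and 1.03%. Among genes described above, CBR1 held 1 TGACNNNGC match and IDH1, AKR1C1 and AKR1C3 none.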
